A study of Mus musculus with 20 samples.

Results

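GATA2 carrying either of 2 single amino acid changes, R307W or T354M, was compared with wild-type GATA2 in blood progenitor cells whose own Gata2 level is low. The comparison sets the mean of the R307W and T354M groups, 8 libraries, against the wild-type GATA2 group, 4 libraries, and so uses 12 of the 20 RNA-seq libraries of the series. Its groups are set by the labels and use no measured value. The differences that each variant shows by itself, and those between the variants, are given beside it.

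The cells were Lin- haematopoietic progenitors, cells without surface markers of mature blood lineages, from mice lacking the -77 enhancer of Gata2 (here enhancer-null), which lies far upstream of the gene. All 12 libraries carry that deletion and an MSCV retroviral vector, which held wild-type GATA2, GATA2 R307W or GATA2 T354M, and RNA was taken after 3 days of culture. Enhancer-null cells with an empty vector and wild-type cells with an empty vector, 4 libraries each, are given as background. Labels of the wild-type GATA2 and empty-vector groups name fetal liver at age E14.5 and the strain C57BL/6J, and culture medium with IL-3 and stem cell factor. The records of both variant groups name none of these, and carry less protocol text, so a difference in handling cannot be told apart from the difference between variants and wild-type GATA2. Nothing in the labels says whether replicates are separate animals or cultures, so the p-values measure the spread between these libraries, which may be technical.

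GATA2 is a zinc finger transcription factor that binds DNA at GATA motifs and keeps blood stem and progenitor cells in being. In the myeloid branch it is needed for mast cells and basophils, granule-filled cells that carry the high-affinity receptor for IgE, and it precedes GATA1 in the red cell and megakaryocyte lineages. R307W changes the N-terminal zinc finger, and T354M the C-terminal finger, which makes the main contact with DNA. T354M is known from families with myelodysplasia and acute leukaemia.

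Each of the 12 libraries held 22785884 to 33245876 expected counts, of which 20.0 to 21.7% came from mitochondrial genes. Values below are in CPM, read counts relative to library size, after TMM scaling, a factor per library that removes differences in composition. They are given in the order of replicates 1 to 4, or as mean ± SD of 4 libraries, and a log2 difference has its standard error (SE). A gene was called at an edgeR adjusted p under 0.05, out of 15835 genes tested. Replicate 4 stood apart in all 3 vector groups, scoring highest of its group on the leading principal component (32.6% of the variance), at 67.6, 48.4 and 4.97. Same-numbered libraries of the 3 groups deviated together, most closely in replicate 4 and least clearly in replicate 2. Counts from a fit blocked on that number therefore stand beside the main ones.

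Gata2 itself, on chr6:88193891-88207032 of GRCm38, plus strand, was measured at 71.0, 76.7, 42.9 and 132 CPM in the wild-type GATA2 libraries. R307W libraries had 50, 40, 39.5 and 89.5 CPM, and T354M libraries 63.5, 33.6, 37.2 and 73.8. The groups overlap, and replicate 4 is the highest in each. Means were 80.7 ± 37.3, 54.8 ± 23.7 and 52.0 ± 19.7 CPM, against 5.79 ± 1.3 with an empty vector and 44.3 ± 9.80 in wild-type cells. Both variants together lay 1.51-fold lower than wild-type GATA2, which did not pass the test (log2 difference -0.60, SE 0.27, edgeR adjusted p = 0.273). With the replicate number as a block in the 12 libraries it did pass (-0.59, edgeR adjusted p = 0.0130). Without wild-type GATA2 replicate 4 and with no block the difference was -0.25 (edgeR adjusted p = 0.859). R307W and T354M did not differ in Gata2 (log2 difference 0.07, SE 0.32, adjusted p = 0.992). Vector and endogenous transcripts are counted as one here, and the amino acid change is not checked, since the sequence in the vector is not given in the sources used here.

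The progenitor label was checked on 3 genes. Kit, the receptor for stem cell factor, measured 98.3 ± 22, 88.5 ± 8.14 and 99.7 ± 4.40 CPM in the GATA2, R307W and T354M groups, and the progenitor surface gene Cd34 190 ± 69.7, 209 ± 59.3 and 257 ± 44.8. Ptprc, the pan-leukocyte gene CD45, was at 479 ± 79.7, 488 ± 43.8 and 438 ± 75.6 CPM. Neither variant was called against wild-type GATA2 in any of these 3 genes.

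Of the 15835 genes, 1005 were called in the mean of both variants against wild-type GATA2 (6.35%), 332 higher (2.1%) and 673 lower (4.25%). Against wild-type GATA2, R307W by itself had 93 genes called higher and 181 lower. T354M by itself had more calls, 611 higher and 972 lower. Among the 1005 calls in the mean, the lower genes moved further: 390 of 673 were at least 2-fold lower, and 67 of 332 at least 2-fold higher. Median log2 differences of called genes were -1.18 and 0.62. With the replicate number as a block in the same 20 libraries 1425 genes were called, among them 998 of the 1005. In a fit of the 12 vector libraries alone 851 were called without the block and 2180 with it, the latter holding 956 of the 1005. Without replicate 4 of any group 659 were called, 604 of them among the 1005. Without wild-type GATA2 replicate 4 alone there were 491, of which 488 are among the 1005. Higher genes were 332 of the 1005 calls, and 306 of 699 with limma on log2(TPM + 1), where TPM is the deposited length-scaled unit.

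A joint test asked that each variant differ from wild-type GATA2 in 1 direction, by adjusting the larger p-value of R307W and T354M. It called 157 genes, all among the 1005: 48 higher (0.303%) and 109 lower (0.688%). A gene called in each variant separately can miss this test, as Prss34 does below. The 157 genes are called shared below, and both of their comparisons use the same 4 wild-type GATA2 libraries. Of the shared genes 30 were at least 2-fold higher and 92 at least 2-fold lower. With the block in the 20 libraries there were 272 shared genes, which hold all 157. The fit of the 12 vector libraries gave 65 without the block and 448 with it, the latter holding 142 of the 157. Without wild-type GATA2 replicate 4 there were 58, all among the 157. All 8 variant libraries lay above all 4 wild-type GATA2 libraries for 252 genes (1.59%), and below them for 260 (1.64%). No overlap was also a condition for naming the 12 highest and 12 lowest genes, so in those genes it is not a separate result. Of the genes described below this holds for Tpsb2, Tpsg1, Tph1, Gnai1, Car8, Mcpt8, Itga2 and Prss34. It also holds for Mgam, Klhl3, Nrg4, Vcam1, Ncam1, Slc28a2, Siglecg, Ldhb, Elane, Gfi1 and Gca.

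**Figure D1:**
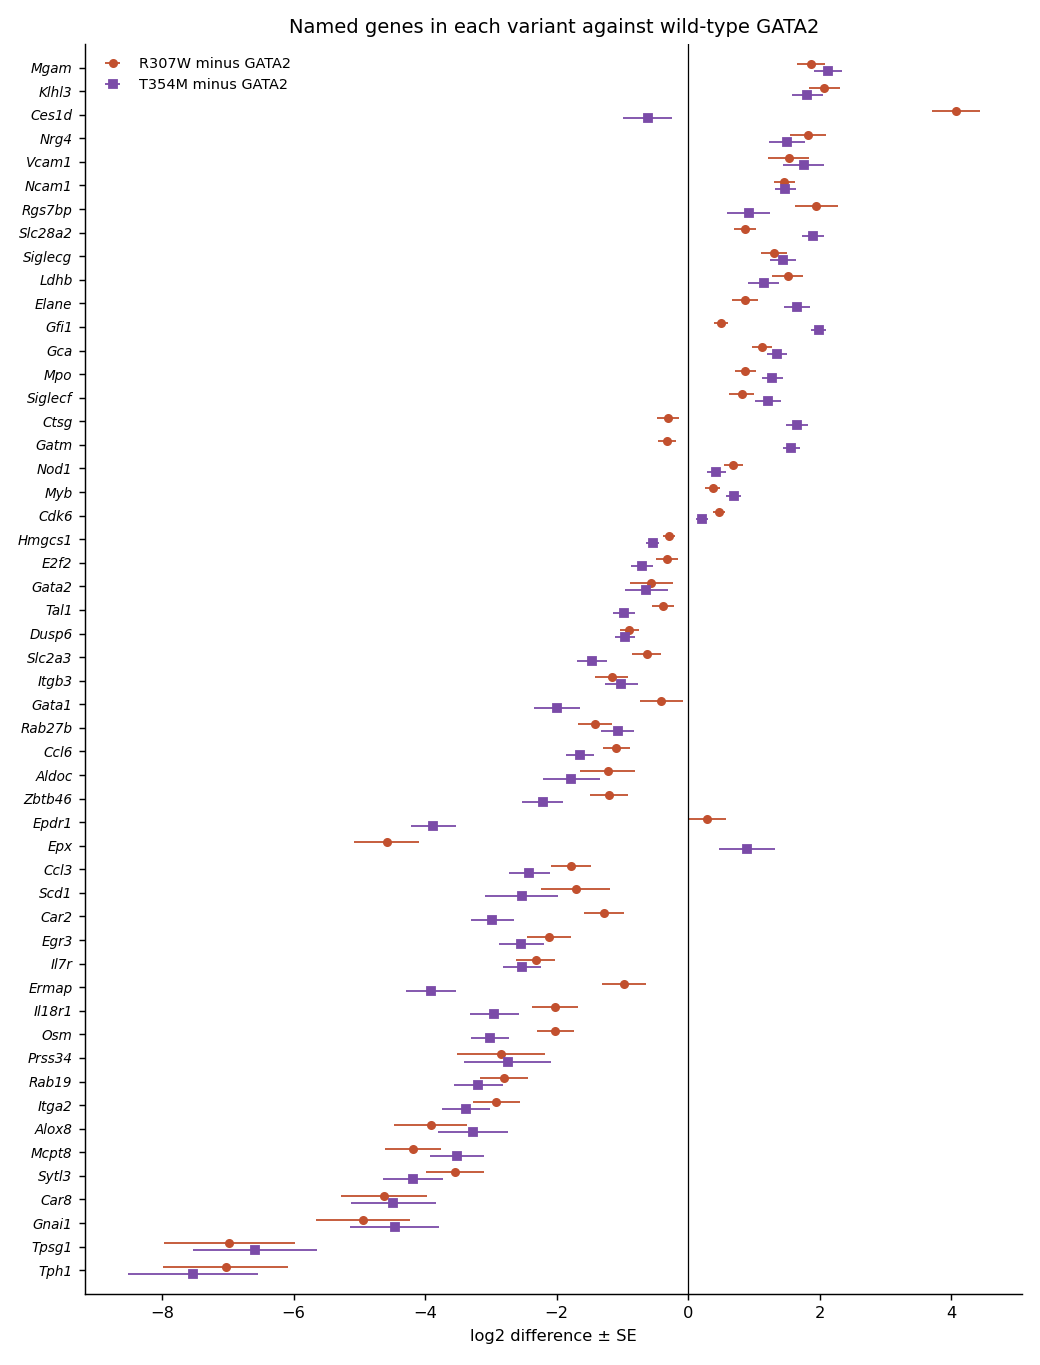
Log2 difference of R307W (circles) and T354M (squares) from wild-type GATA2, with standard errors, for the named genes, sorted by the mean of both variants. Tpsb2 and Dnase2b, with 2 counts or fewer in the R307W group, are left out. Most genes have both variants on the same side of 0, which the naming rule fixed in advance for the 12 highest and 12 lowest. Epx, Epdr1, Ces1d, Gatm and Ctsg have them on opposite sides.

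Mast cell and basophil genes had the lowest median difference of the 23 gene lists. Of 30 tested members of this list 19 were lower in both variants together and none was higher, with a median log2 difference of -2.47 (0.017 over all genes tested). Shared calls numbered 8, all lower, and for 9 members all 8 variant libraries lay below all 4 wild-type GATA2 libraries. For R307W the median was -1.71 and for T354M -2.75. Without replicate 4 of any group 20 members were lower, and 15 were lower with the Gata2 level of each library as a covariate in the 12 libraries. RNA from bulk cells cannot tell fewer cells of a type from less RNA per cell, here and in every list below.

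The promoters of 3 of these genes, and of Mgam, the gene with the highest difference among those named as higher, are shown because GATA factors bind the letters AGATAA and TGATAA. These runs differ in their first base, and both strands were searched, as TTATCT and TTATCA on the other strand. Each sequence is the 250 bases before the transcription start in the RefSeq promoter table (GRCm38.p6), written 5′ to 3′ on the gene's strand, with the motif in capitals. Ms4a2 lies on the minus strand with its window at chr19:11623720-11623969, Cpa3 on the minus strand at chr3:20242182-20242431, Prss34 on the plus strand at chr17:25298144-25298393 and Mgam on the plus strand at chr6:40628581-40628830.
Ms4a2: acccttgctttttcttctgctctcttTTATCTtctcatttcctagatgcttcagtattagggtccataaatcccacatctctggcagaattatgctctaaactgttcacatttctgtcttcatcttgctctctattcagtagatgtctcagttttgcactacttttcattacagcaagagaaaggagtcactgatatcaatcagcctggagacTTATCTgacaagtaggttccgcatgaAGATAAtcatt
Cpa3: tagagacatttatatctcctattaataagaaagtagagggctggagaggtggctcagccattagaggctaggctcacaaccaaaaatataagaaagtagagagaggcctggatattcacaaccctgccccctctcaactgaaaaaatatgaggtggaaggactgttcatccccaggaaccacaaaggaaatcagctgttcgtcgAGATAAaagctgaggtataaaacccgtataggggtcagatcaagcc
Prss34: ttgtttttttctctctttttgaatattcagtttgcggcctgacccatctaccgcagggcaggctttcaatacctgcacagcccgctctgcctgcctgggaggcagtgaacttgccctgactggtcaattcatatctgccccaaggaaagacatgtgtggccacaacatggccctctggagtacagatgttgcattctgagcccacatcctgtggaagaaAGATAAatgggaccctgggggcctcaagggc
Mgam: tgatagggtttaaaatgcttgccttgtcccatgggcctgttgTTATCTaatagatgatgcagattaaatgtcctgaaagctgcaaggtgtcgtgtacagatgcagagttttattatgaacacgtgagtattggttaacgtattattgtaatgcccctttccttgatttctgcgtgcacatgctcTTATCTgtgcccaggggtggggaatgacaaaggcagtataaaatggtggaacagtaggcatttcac

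A motif of this kind was in 12 of 26 promoters of the mast cell and basophil list that had a window, 46.2%. Among all tested genes with a window it was in 1060 of 10702, 9.9%. Genes called lower had it in 82 of 504 windows (16.3%) and genes called higher in 20 of 243 (8.23%). Shared lower genes had it in 16 of 79 (20.3%) and shared higher genes in 8 of 40 (20.0%). Mcpt8 and Tph1 had neither AGATAA nor TGATAA in these 250 bases. Runs with another last letter, such as the AGATAG in the Tph1 window, were not counted in any gene. A match describes letters and does not show binding.

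Several proteases of basophil and mast cell granules were among the lower genes. Mcpt8, a basophil protease on chr14:56082166-56085273, measured 679, 571, 255 and 1072 CPM with wild-type GATA2. R307W libraries had 34.5, 30.4, 18.4 and 57.8, and T354M libraries 57.7, 30.6, 44.9 and 91.5. The lowest wild-type GATA2 library is above the highest variant library, and the variants together were lower (log2 difference -3.85, SE 0.32, adjusted p = 2.14e-06). R307W and T354M did not differ past the test in Mcpt8 (-0.67, SE 0.38, adjusted p = 0.556). Both stayed above the empty vector, at 11 ± 0.786 CPM (log2 difference of both variants from it 2.02, adjusted p = 0.000783).

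Prss34, another basophil protease, on chr17:25298394-25300165, had 547, 507, 296 and 913 CPM with wild-type GATA2. In R307W it had 57.9, 54.0, 36.6 and 166, and in T354M 101, 17.9, 23.7 and 195. The groups do not overlap, with replicate 4 highest in all 3. The variants together were 6.94-fold lower (log2 difference -2.80, SE 0.52, adjusted p = 0.00192), and against the empty vector, at 2.52 ± 2.15 CPM, they were higher by 4.99 (adjusted p = 0.000146). R307W was called against wild-type GATA2 by itself (adjusted p = 0.0325), as was T354M (0.0102), but Prss34 is not among the shared genes (adjusted p = 0.0567).

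The tryptase genes beside Prss34 on chromosome 17 were nearly absent in the variants. Tpsb2, a mast cell tryptase on chr17:25366305-25369098, measured 9.38, 4.98, 0.337 and 30.6 CPM with wild-type GATA2. In the R307W group it had 1 count against 1296 in the wild-type GATA2 group, a ratio of 1261 in CPM with a 95% counting interval of 225.9 to 49850. T354M had counts in replicate 4 alone, at 0.161 CPM, and the empty vector had none in any library. Tpsg1, the gene of a membrane-bound tryptase at chr17:25369273-25374442, had 4.37, 3.04, 0.412 and 17.5 CPM with wild-type GATA2, and 0 to 0.129 in the 8 variant libraries. Wild-type GATA2 replicate 3 was the lowest of its group for both, at a level still above every variant library. Tpsb2 shares sequence with Tpsab1, so how reads divide between them is uncertain. Tpsab1 had 1 count in the R307W group and 0 in T354M, against 167 with wild-type GATA2, at least 57.8-fold lower in T354M when 3 counts are taken as the floor of the whole group. Such intervals and floors hold no error beyond counting.

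The tryptase genes were also present in wild-type cells with an empty vector. There Tpsb2 had 15.6 ± 4.18 CPM, Tpsg1 3.30 ± 0.854 and Cma1, a mast cell chymase, 64.4 ± 18.2. Cma1 measured 23.5, 11.9, 1.31 and 37.8 CPM with wild-type GATA2. R307W libraries had 1.37, 0.694, 0.578 and 4.86, and T354M libraries 0.419, 0.0772, 0 and 0.483. R307W replicates 1 and 4 lie above the lowest wild-type GATA2 library, and Cma1 was a shared gene (26.3-fold lower, log2 difference -4.72, SE 0.65, adjusted p = 0.000151, shared adjusted p = 0.0389).

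Tph1 encodes the enzyme that begins serotonin synthesis in mast cells. It had 7.45, 4.57, 0.825 and 23.3 CPM with wild-type GATA2, 0 to 0.121 in R307W and 0 to 0.0772 in T354M. Its mean with the empty vector was 0.0774 ± 0.0900, and both variants did not differ from that past the test (log2 difference -0.52, adjusted p = 0.821). Car8, a protein related to carbonic anhydrases, showed the same order, with 13.3, 8.29, 2.47 and 34.4 CPM with wild-type GATA2 and 0.349 to 1.32 in the 8 variant libraries. Gnai1, an inhibitory G protein subunit, had 5.59, 2.59, 0.600 and 13.4 CPM against 0.0416 to 0.347. The groups are apart in all 3 genes, as the naming rule required, and each was a shared gene (adjusted p = 0.000652 for Tph1, 0.00104 for Car8 and 0.00174 for Gnai1).

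Some surface receptors of these cells were lower and others were not called. Ms4a2, the beta chain of the IgE receptor, on chr19:11615523-11623719, measured 180, 163, 133 and 284 CPM with wild-type GATA2. R307W libraries had 35.3, 25.1, 20.9 and 76.3, and T354M libraries 28.4, 5.94, 9.05 and 42.2, all below. It was 6.53-fold lower (log2 difference -2.71, SE 0.39, adjusted p = 0.000209) and shared (adjusted p = 0.0259). Fcer1a, the alpha chain of the same receptor, split the variants: 5.62 ± 2.82 CPM with wild-type GATA2, 2.00 ± 1.46 with R307W and 3 counts in all 4 T354M libraries. T354M was lower by a ratio of 217.3 (95% counting interval 74.01 to 1057), and the variants differed (log2 difference 6.02, SE 0.76, adjusted p = 0.000135). Fcer1g, the gamma chain used by many Fc receptors, was not called (89.8 ± 5.10, 70.8 ± 5.47 and 72.2 ± 11.2 CPM, adjusted p = 0.0506). Itga2, the integrin alpha chain CD49b found on basophils, had 26.2, 18, 7.83 and 40.9 CPM with wild-type GATA2 and 1.87 to 4.23 in the variants. The groups are apart, and at 8.86-fold lower (log2 difference -3.15, SE 0.28, adjusted p = 2.27e-06) Itga2 reached the level of the empty vector, 2.79 ± 0.631 (difference from it -0.09, adjusted p = 0.877).

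Not every mast cell and basophil gene was lower. Hdc, the enzyme that makes histamine, measured 570, 508, 280 and 914 CPM with wild-type GATA2, 371, 373, 357 and 580 with R307W, and 418, 223, 309 and 586 with T354M. These groups overlap, and the difference was not called (log2 difference -0.50, SE 0.24, adjusted p = 0.305). Against the empty vector, at 14.2 ± 1.45 CPM, both variants were higher by 4.82 on the log2 scale (adjusted p = 1.14e-08) and wild-type GATA2 by 5.32. Srgn, the core protein of granule proteoglycan, was at 690 ± 159, 635 ± 205 and 483 ± 73.0 CPM (adjusted p = 0.376). Cpa3, the mast cell carboxypeptidase, was lower in both variants together (3.55-fold, adjusted p = 0.000826), with 674 ± 290, 105 ± 40.7 and 344 ± 198 CPM, and R307W was below T354M (log2 difference -1.72, SE 0.38, adjusted p = 0.0132). Of the 30 list members, 22 were higher with wild-type GATA2 than with the empty vector and 3 lower. For both variants together these counts were 15 and 5. Over all genes, wild-type GATA2 had 1738 higher (11%) and 1304 lower (8.23%), and both variants 1893 higher (12%) and 1845 lower (11.7%). These comparisons share libraries with each other and with the main one.

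**Figure D2:**
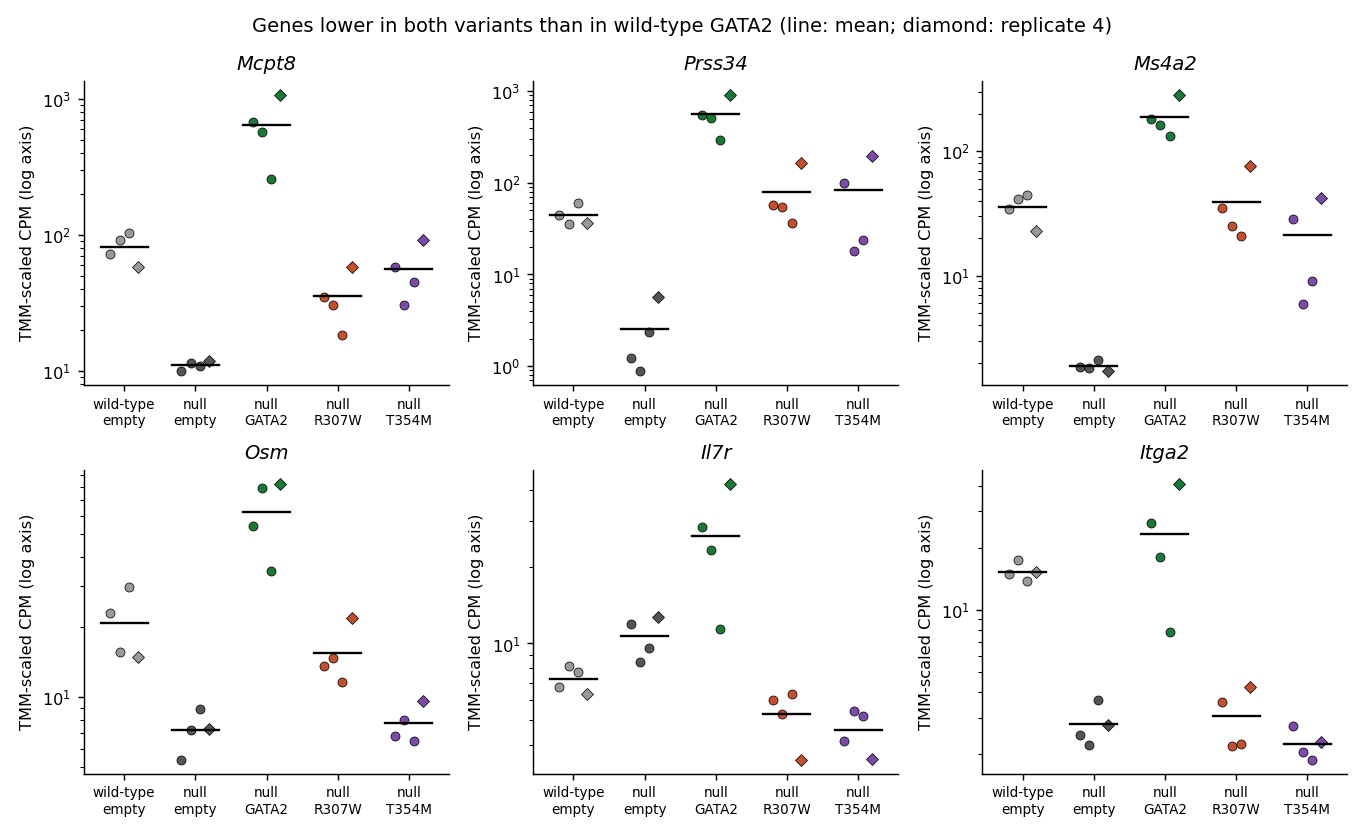
TMM-scaled CPM on a log axis for 6 genes lower in both variants, 1 point per library in 5 groups of 4, with the mean as a line and replicate 4 as a diamond. "Null" stands for enhancer-null. In each panel all 8 variant points lie under all 4 wild-type GATA2 points. For Mcpt8, Prss34 and Itga2 this was a condition of naming. Mcpt8, Prss34 and Ms4a2 stay above the empty vector in the variants, and Il7r lies below it.

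Some genes of secreted signals and of their receptors were lower. In the list of cytokines and chemokines 9 of 28 tested members were lower and none higher, 5 of them shared, and 11 were lower without replicate 4 of any group. Osm, which encodes oncostatin M, measured 54.2, 79.0, 34.7 and 82.7 CPM with wild-type GATA2. It measured 13.5, 14.7, 11.6 and 21.9 with R307W and 6.84, 7.99, 6.45 and 9.60 with T354M, so the groups are apart. It was 5.73-fold lower (log2 difference -2.52, SE 0.22, adjusted p = 2.27e-06), and the variants did not differ past the test (1.00, SE 0.28, adjusted p = 0.0509). Lif, a related cytokine whose gene lies next to Osm on chromosome 11, was 4.67-fold lower (2.26 ± 1.02, 0.532 ± 0.164 and 0.428 ± 0.286 CPM, adjusted p = 0.000491).

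The chemokine genes Ccl3, Ccl6 and Ccl9, neighbours on chromosome 11, were all shared and lower. Ccl3, which attracts leukocytes, had 52.3, 68.2, 31.9 and 70.7 CPM with wild-type GATA2, 12.6 to 20.4 with R307W and 5.96 to 16.2 with T354M. Ccl6 had 118, 143, 91.5 and 163 CPM, against 41.4 to 81.2 and 31.7 to 51.0. Ccl9 had 210 to 305, against 133 to 164 and 86.3 to 131. None of these groups overlaps with wild-type GATA2. The folds were 4.28, 2.58 and 2.09 (adjusted p = 2.71e-05, 5.22e-05 and 8.23e-05). Il6 separated the variants: its 67.6 ± 27.4 CPM with wild-type GATA2 compared with 25.8 ± 12.4 in R307W and 6.99 ± 5.83 in T354M (R307W minus T354M 1.88, SE 0.48, adjusted p = 0.0347).

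Among 32 cytokine and growth factor receptors 9 were lower, 4 of them shared, and none was higher, with 9 lower also without replicate 4 of any group. The median was -0.15, 10 of the 32 log2 differences were above 0, and with the block in the 12 libraries 4 were higher and 12 lower. Il7r, the interleukin 7 receptor, also a member of the lymphoid list, was the clearest. It had 28.6, 23.2, 11.4 and 42.2 CPM with wild-type GATA2, 5.98, 5.32, 6.36 and 3.50 with R307W, and 4.16, 5.44, 5.19 and 3.54 with T354M. At 5.36-fold lower (log2 difference -2.42, SE 0.23, adjusted p = 4.83e-06) the variants were also below the empty vector, 10.7 ± 1.97 CPM (difference from it -1.12, adjusted p = 0.00253). No other of the 11 tested lymphoid genes was called.

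The receptors for interleukins 33 and 18 are encoded side by side on chromosome 1. Il18r1, at chr1:40465552-40500854, had 8.52, 6.05, 3.04 and 12.1 CPM with wild-type GATA2 and 0.618 to 2.51 in the variants (5.61-fold lower, adjusted p = 2.68e-05, shared). Il18rap, its partner chain at chr1:40515362-40551705, had 189 ± 40.3, 97.0 ± 16.6 and 101 ± 23.3 CPM (1.91-fold lower, adjusted p = 0.000438, shared). Il1rl1, the interleukin 33 receptor of mast cells at chr1:40429570-40465415, had 402, 284, 174 and 647 CPM with wild-type GATA2, 123, 72.1, 69.0 and 208 with R307W, and 41.2, 8.88, 14.7 and 70.5 with T354M. R307W replicate 4 lies above the lowest wild-type GATA2 library, although at each replicate number R307W was below wild-type GATA2. In the fit without the block Il1rl1 was called in the mean (5.96-fold lower, edgeR adjusted p = 0.000519) but not shared (adjusted p = 0.182).

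Part of the MAP kinase response genes were lower. Of 29 members of the list of MAP kinase feedback and immediate early genes 10 were lower and none higher, 5 of them shared, and for 8 all variant libraries lay below all wild-type GATA2 libraries. The median was -0.34, with 8 of 29 log2 differences above 0. Dusp6, a phosphatase that switches off ERK, measured 72.1, 74.3, 63.1 and 99.6 CPM with wild-type GATA2. R307W libraries had 37.7, 49.2, 44.3 and 35.1 and T354M libraries 36.9, 45.7, 43.7 and 33. The groups are apart, and the fold was 1.90 (log2 difference -0.93, SE 0.12, adjusted p = 0.000116). In Dusp6 the variants were also below the empty vector, 59.3 ± 5.66 CPM (-0.54, adjusted p = 0.0045).

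Egr3, an immediate early transcription factor, had 5.95, 5.06, 3.37 and 6.48 CPM with wild-type GATA2 and 0.419 to 1.69 in the variants (5.01-fold lower, adjusted p = 2.68e-05, shared). Its relative Egr2 had 2.96 ± 1.03, 0.920 ± 0.260 and 0.647 ± 0.279 CPM (3.83-fold lower, adjusted p = 0.000193, shared). Ier3 and Etv5 were the other 2 genes of the list, beside Dusp6, that were shared. Ier3 fell 1.97-fold (28.0 ± 5.14 CPM to 14.7 ± 3.14 and 13.6 ± 2.20) and Etv5, an ETS transcription factor, 1.45-fold (29.1 ± 5.05 to 20.8 ± 1.28 and 19.3 ± 0.508). Etv5 in both variants did not differ past the test from the empty vector, 21.3 ± 0.460 CPM (-0.09, adjusted p = 0.52).

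Most erythroid genes were lower in both variants together, and many differed between R307W and T354M. Of 36 tested members 22 were lower in both variants together and 1 was higher, with a median log2 difference of -0.87. By itself R307W had 1 member called lower, and T354M had 23 lower and 1 higher. The median was -0.23 for R307W and -1.26 for T354M, and 16 members were higher in R307W than in T354M, with none lower. Over all genes R307W was higher than T354M for 364 (2.3%) and lower for 189 (1.19%). A single erythroid gene was shared, Car2, which encodes carbonic anhydrase 2. Without replicate 4 of any group 17 members were lower, and without wild-type GATA2 replicate 4 alone 14.

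Car2 had 158, 161, 89.7 and 343 CPM with wild-type GATA2, 73.8, 59.4, 53.6 and 122 with R307W, and 24.9, 18.9, 26.5 and 25.1 with T354M. R307W overlaps wild-type GATA2 and T354M does not. The variants together were 4.37-fold lower (log2 difference -2.13, SE 0.25, adjusted p = 2.68e-05), and R307W was above T354M (1.70, SE 0.31, adjusted p = 0.0033). Ermap, a red cell membrane protein, had 52.0 ± 26.0, 26.4 ± 12.3 and 3.45 ± 0.652 CPM (R307W minus T354M 2.94, SE 0.37, adjusted p = 0.000135). The gene that was higher, Slc25a37, encodes the mitochondrial iron importer of red cell precursors (49.4 ± 5.66, 59.1 ± 4.14 and 81.3 ± 9.58 CPM, 1.40-fold, adjusted p = 0.00959).

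Among the GATA factors and cofactors 2 of 12 were lower, 1 without wild-type GATA2 replicate 4, and 2 were higher and 6 lower with the block in the 12 libraries. Gata1, the GATA factor of red cells and megakaryocytes, had 45.5, 45.8, 29.6 and 73.5 CPM with wild-type GATA2. It had 35.7, 28.3, 22.9 and 59.8 with R307W, which overlaps, and 13.2, 5.71, 8.98 and 21 with T354M, which does not. At each replicate number R307W was below wild-type GATA2. The mean of both variants was 2.29-fold lower (log2 difference -1.20, SE 0.28, edgeR adjusted p = 0.0117). R307W alone was not called in this fit, which has no block (-0.40, SE 0.33, adjusted p = 0.966), and the variants differed (1.58, SE 0.35, adjusted p = 0.0118). Without wild-type GATA2 replicate 4 the call in the mean of both variants was lost (-0.93, edgeR adjusted p = 0.116). Tal1, a partner of GATA factors, had 56.5 ± 14.8, 43.4 ± 8.30 and 28.7 ± 3.80 CPM (1.60-fold lower, adjusted p = 0.00393).

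In the megakaryocyte list 4 of 23 genes were lower and none higher, and 10 were lower with the block in the 12 libraries. Itgb3, an integrin of platelets, had 86.8 ± 31.7, 38.9 ± 3.04 and 42.8 ± 7.12 CPM (2.13-fold lower, adjusted p = 0.00235). Plek, a protein kinase C substrate of platelets and leukocytes, had 286 ± 6.01, 203 ± 19.5 and 181 ± 31.1 (1.5-fold lower, adjusted p = 0.00441). Of 29 integrins and adhesion genes 4 were lower, Itga2 and Itgb3 among them, and Itga2 alone was shared. With the block in the 12 libraries 9 were lower.

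Some neutrophil genes were higher in the variants, and most were not called. Of 26 members of the neutrophil list 5 were higher and none lower, and the median log2 difference was 0.50 (0.16 for R307W, 0.77 for T354M). Mpo, Elane and Gfi1 were shared, and Ctsg and Prtn3 were called in the mean and in T354M but not in R307W. In 5 members R307W was lower than T354M, in none higher. Without replicate 4 of any group 4 were higher, without wild-type GATA2 replicate 4 alone 3, and with the block in the 12 libraries 13 were higher and 1 lower.

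Mpo, the myeloperoxidase of early neutrophil granules, measured 1572, 2232, 1968 and 1683 CPM with wild-type GATA2. R307W libraries had 2660, 3810, 3155 and 4026, and T354M libraries 4140, 3646, 4623 and 5718, all above. It was 2.11-fold higher (log2 difference 1.08, SE 0.15, adjusted p = 0.000127), while wild-type GATA2 did not differ past the test from the empty vector, 1664 ± 173 CPM (0.16, adjusted p = 0.549). Elane, neutrophil elastase, had 31.1, 31.8, 25.6 and 20.4 CPM with wild-type GATA2, 46.3, 73.5, 37.7 and 41.0 with R307W, and 94.8, 77.4, 78.1 and 93.7 with T354M. The groups are apart (2.40-fold, log2 difference 1.26, SE 0.18, adjusted p = 0.000195), and R307W was below T354M (-0.79, SE 0.20, adjusted p = 0.0275).

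Gfi1, a repressor needed for neutrophil development, showed the clearest difference between the variants within the list. It had 16.6, 16.7, 14.7 and 15.1 CPM with wild-type GATA2, 21.6, 25.3, 23.2 and 19.3 with R307W, and 65.1, 50.9, 66.2 and 67.7 with T354M. None of the 3 groups overlaps. Both variants were 2.37-fold higher together (log2 difference 1.24, SE 0.10, adjusted p = 2.14e-06), and T354M was above R307W (R307W minus T354M -1.48, SE 0.11, adjusted p = 3.61e-07). Ctsg, the cathepsin G gene, lies between Mcpt8 and Gzmb on chromosome 14, at chr14:56099881-56102574. It was called higher in T354M and not in R307W (843 ± 149 CPM, against 268 ± 39.4 with wild-type GATA2 and 218 ± 49.2 with R307W). Mcpt8 and Gzmb, a granzyme, were lower on either side of it, with Gzmb at 28.2 ± 15.4, 7.36 ± 5.42 and 1.31 ± 1.06 CPM (8.96-fold lower, adjusted p = 0.000362).

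**Figure D3:**
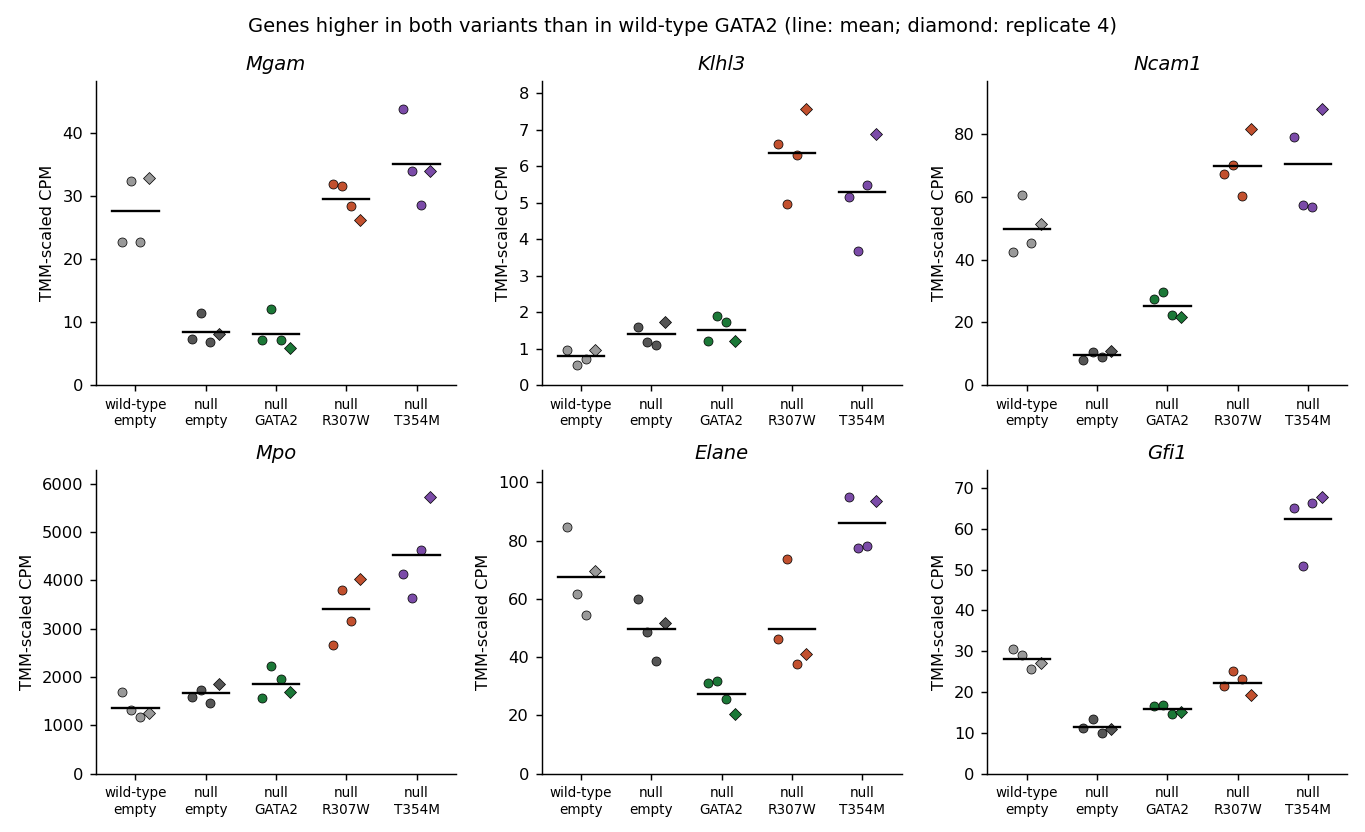
TMM-scaled CPM on a linear axis from 0 for 6 genes higher in both variants, 1 point per library in 5 groups of 4, with the mean as a line and replicate 4 as a diamond. "Null" stands for enhancer-null. All 8 variant points lie over all 4 wild-type GATA2 points in each panel. For all of these genes but Mpo this was a condition of naming. Gfi1 and Elane are higher in T354M than in R307W.

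Among called genes with at least 5 CPM in a vector group and no overlap between variant and wild-type GATA2 libraries, the highest differences were those of Mgam, Klhl3, Nrg4, Vcam1 and Ncam1, all shared. Mgam, an intestinal-type maltase-glucoamylase on chr6:40628831-40769123, had 7.09, 12, 7.16 and 5.93 CPM with wild-type GATA2. R307W libraries had 31.8, 31.5, 28.4 and 26.2 and T354M libraries 43.8, 34.0, 28.6 and 34.0. The groups are far apart at 4.00-fold (log2 difference 2.00, SE 0.20, adjusted p = 5.4e-06). Wild-type GATA2 and the empty vector, 8.42 ± 2.10 CPM, did not differ past the test in Mgam (-0.07, adjusted p = 0.884), and wild-type cells had 27.6 ± 5.69.

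Klhl3, an adaptor of a ubiquitin ligase, had 1.22, 1.90, 1.72 and 1.20 CPM with wild-type GATA2, 6.61, 4.97, 6.32 and 7.58 with R307W, and 5.17, 3.67, 5.48 and 6.89 with T354M. It was 3.85-fold higher (log2 difference 1.94, SE 0.22, adjusted p = 1.85e-05), and the variants were also above wild-type cells, 0.789 ± 0.204 CPM, in every library. Ncam1, the adhesion molecule CD56, on chr9:49502136-49798925, had 27.5, 29.6, 22.3 and 21.7 CPM with wild-type GATA2, 67.4, 70.1, 60.2 and 81.5 with R307W, and 79.0, 57.4, 56.9 and 88.1 with T354M. At 2.77-fold higher (log2 difference 1.47, SE 0.14, adjusted p = 5.4e-06), the variants exceeded the empty vector, 9.56 ± 1.31, by 2.87 on the log2 scale, and wild-type GATA2 exceeded it by 1.40. R307W and T354M did not differ past the test in Ncam1 (-0.01, SE 0.15, adjusted p = 0.997). Vcam1, an adhesion molecule for leukocytes, had 3.32 ± 1.35, 9.63 ± 2.84 and 11.3 ± 4.38 CPM (3.13-fold, adjusted p = 0.000977). Nrg4, a growth factor of the neuregulin family, had 2.43 ± 1.07, 8.60 ± 0.592 and 6.89 ± 0.816 (3.17-fold, adjusted p = 0.000346).

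Other higher genes that were shared were Slc28a2, a nucleoside transporter, Gca, a calcium-binding granule protein, Ldhb, a lactate dehydrogenase subunit, and the inhibitory sialic acid receptors Siglecg and Siglecf. Slc28a2 had 19.2 ± 2.97, 34.9 ± 4.41 and 71.5 ± 8.66 CPM, with R307W below T354M (log2 difference -1.03, SE 0.16, adjusted p = 0.000835). Siglecf and Siglecg lie near each other on chromosome 7. Siglecf, found on eosinophils, had 50.2 ± 6.27, 88.1 ± 22.7 and 117 ± 41.3 CPM (2.02-fold, adjusted p = 0.000894), and Siglecg 4.41 ± 1.41, 10.9 ± 1.07 and 12 ± 2.49 (2.59-fold, adjusted p = 7.96e-05).

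Eosinophil genes were called in both directions. Of 11 tested members 3 were lower (Ccl6, Epx and Ccr3) and 1, Siglecf, was higher. Epx, eosinophil peroxidase, had 265, 327, 193 and 362 CPM with wild-type GATA2, 11.1, 14.6, 5.70 and 16.2 with R307W, and 567, 223, 186 and 1167 with T354M. R307W lies far below and T354M overlaps wild-type GATA2, so the lower mean (log2 difference -1.84, SE 0.36, adjusted p = 0.00253) comes from R307W. The variants differed by -5.49 (SE 0.52, adjusted p = 5.42e-06). Prg2, the major basic protein of eosinophil granules, had 2050 ± 484, 1358 ± 418 and 1826 ± 1519 CPM and was not called (adjusted p = 0.739). In 3 members R307W was above T354M, and Ear2 was the furthest apart (76.0 ± 25, 270 ± 143 and 17.8 ± 14.7 CPM, R307W minus T354M 3.92, SE 0.53, adjusted p = 0.000231). Genes of the Ear family are near copies, so the level of each is uncertain.

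Of the 1005 called genes 251, or 25%, also differed between R307W and T354M, which is 45.4% of the 553 genes called between the variants. Among the 157 shared genes 17 did so (10.8% of the shared genes and 3.07% of the 553). Over all 15835 genes the variants differed in 2.3% with R307W higher and 1.19% with R307W lower. A call in the mean can thus rest on 1 variant. For 25 called genes R307W and T354M had opposite signs against wild-type GATA2, and none of the 25 was called in both. Ces1d, a carboxylesterase, had 1.3 ± 0.403 CPM with wild-type GATA2, 22 ± 9.67 with R307W and 0.842 ± 0.271 with T354M. Epdr1 had 12.2 ± 5.07, 15 ± 4.40 and 0.823 ± 0.327, and Gatm, the first enzyme of creatine synthesis, 11.6 ± 1.79, 9.29 ± 1.5 and 34.4 ± 2.04. R307W and T354M differed in each of these 3 genes (log2 differences 4.69, 4.17 and -1.89, adjusted p = 1.02e-06, 1.15e-06 and 3.61e-07).

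**Figure D4:**
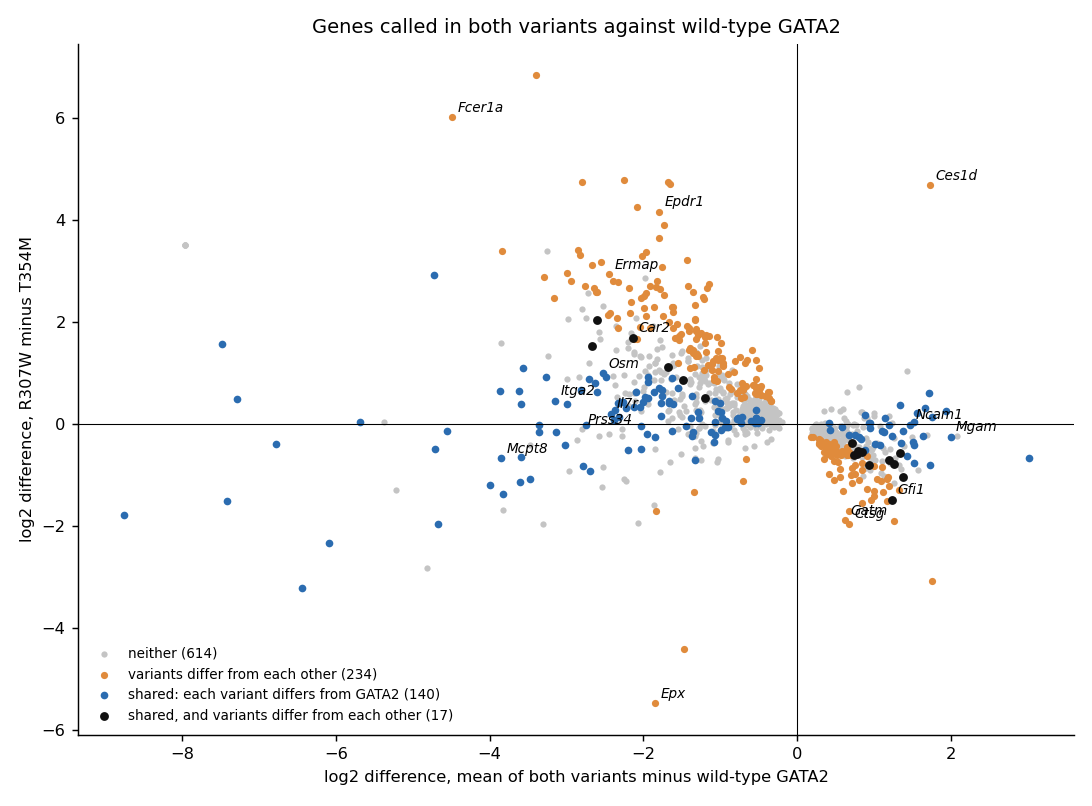
Genes called in the mean of both variants against wild-type GATA2, 1 point per gene. The horizontal axis is the log2 difference of the mean of both variants from wild-type GATA2 and the vertical axis is R307W minus T354M, with colours for shared genes and for genes that differ between the variants. Points near the horizontal line, such as Mcpt8, Ncam1 and Mgam, moved alike in both variants, and Epx, Epdr1 and Ces1d lie far from it.

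Of 26 stem and progenitor genes 1 was higher and 5 were lower. The lower ones numbered 1 without wild-type GATA2 replicate 4 and 2 without replicate 4 of any group, and with the block in the 12 libraries 5 were higher and 6 lower. The higher gene was Myb, a transcription factor of progenitors, at 351 ± 35.3, 454 ± 63.9 and 567 ± 91.2 CPM (1.45-fold, adjusted p = 0.00228). Meis1, a homeobox gene of stem cells, was lower at 38.2 ± 4.64, 33.2 ± 5.82 and 24.9 ± 3.60 (1.33-fold, adjusted p = 0.021). Of 33 cell cycle genes 1, the kinase gene Cdk6, was higher and 1, E2f2, was lower, which is near the background. Both calls were lost without replicate 4 of any group (adjusted p = 0.0570 and 0.0532).

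Of 26 genes of cholesterol and fatty acid synthesis 5 were called lower and none higher, 14 lower with the block in the 12 libraries, with 25 of 26 log2 differences below 0 and a median of -0.29. Hmgcs1, an early enzyme of the cholesterol pathway, had 147, 136, 122 and 137 CPM with wild-type GATA2, 116, 101, 109 and 118 with R307W, and 90.4, 89.5, 98.9 and 94.0 with T354M. The groups do not overlap (1.33-fold lower, log2 difference -0.41, SE 0.08, adjusted p = 0.00223), although with limma on log2(TPM + 1) the call was lost (adjusted p = 0.113). In glycolysis and hypoxia 4 of 24 were lower and none higher. Lower genes there numbered 1 without replicate 4 of any group, 2 without wild-type GATA2 replicate 4 and 13 with the block in the 12 libraries. Slc2a3, a glucose transporter, had 126 ± 37.9, 81.8 ± 16.6 and 45.9 ± 3.52 CPM (2.06-fold lower, adjusted p = 0.0012).

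In some lists no gene was called at the adjusted threshold. None of 31 monocyte and macrophage genes was called, with 1 higher and 2 lower at an unadjusted p under 0.05 by edgeR, and none called by DESeq2 at an adjusted p under 0.05. The summed level of that list ran from 2020 to 4955 CPM with wild-type GATA2, 1990 to 5183 with R307W and 2207 to 6046 with T354M. Csf1r, the macrophage growth factor receptor, had 185 ± 78.3, 195 ± 88.1 and 186 ± 96.4 CPM. None of 38 interferon response genes was called, with 0 higher and 1 lower at an unadjusted p under 0.05 by edgeR, and none called by DESeq2 at an adjusted p under 0.05. Against the empty vector 36 of the 38 were lower in the mean of both variants and 28 with wild-type GATA2. With the Gata2 level as a covariate 12 monocyte and macrophage genes and 10 interferon genes were lower.

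Of 21 genes of dendritic cells and of MHC class II 1 was lower, the transcription factor gene Zbtb46 (4.89 ± 2.10, 2.13 ± 0.285 and 1.06 ± 0.429 CPM, 3.26-fold, adjusted p = 0.000199). Of 29 innate immune receptors 1 was higher, Nod1, at 1.47-fold (adjusted p = 0.0109). Both list counts are near the shares over all genes, 4.25% lower and 2.1% higher. The Nod1 call was lost with limma on log2(TPM + 1) (adjusted p = 0.286). It was also lost without replicate 4 of any group (edgeR adjusted p = 0.132) and without wild-type GATA2 replicate 4 alone (0.0805). None of 27 lysosome and granule biogenesis genes and none of 13 mitochondrially encoded genes was called, with 1 higher and 1 lower, and 1 higher and 0 lower, at an unadjusted p under 0.05 by edgeR, and none called by DESeq2 at an adjusted p under 0.05. With the Gata2 level as a covariate 6 genes of dendritic cells and MHC class II, 7 innate immune receptors and 6 lysosome genes were lower.

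Other cells of the fetal liver were looked for by their markers. None of 18 hepatocyte genes was called, with 0 at an unadjusted p under 0.05 by edgeR, and none called by DESeq2 at an adjusted p under 0.05. The summed hepatocyte level was 547 to 2044 CPM with wild-type GATA2, 318 to 1744 with R307W and 583 to 2257 with T354M. Alb, the albumin gene, was at 226, 91.4, 102 and 35.2 CPM with wild-type GATA2, 190, 85.2, 65.0 and 18.5 with R307W, and 288, 129, 68.2 and 41.5 with T354M, lowest in replicate 4 of each. None of 20 endothelial and stromal genes was called, with 0 higher and 1 lower at an unadjusted p under 0.05 by edgeR, and none called by DESeq2 at an adjusted p under 0.05. With the block in the 12 libraries 1 gene was called in each of these 6 lists with no call. The summed endothelial and stromal level was 618 to 712 CPM with wild-type GATA2, 524 to 729 with R307W and 601 to 738 with T354M.

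**Figure D5:**
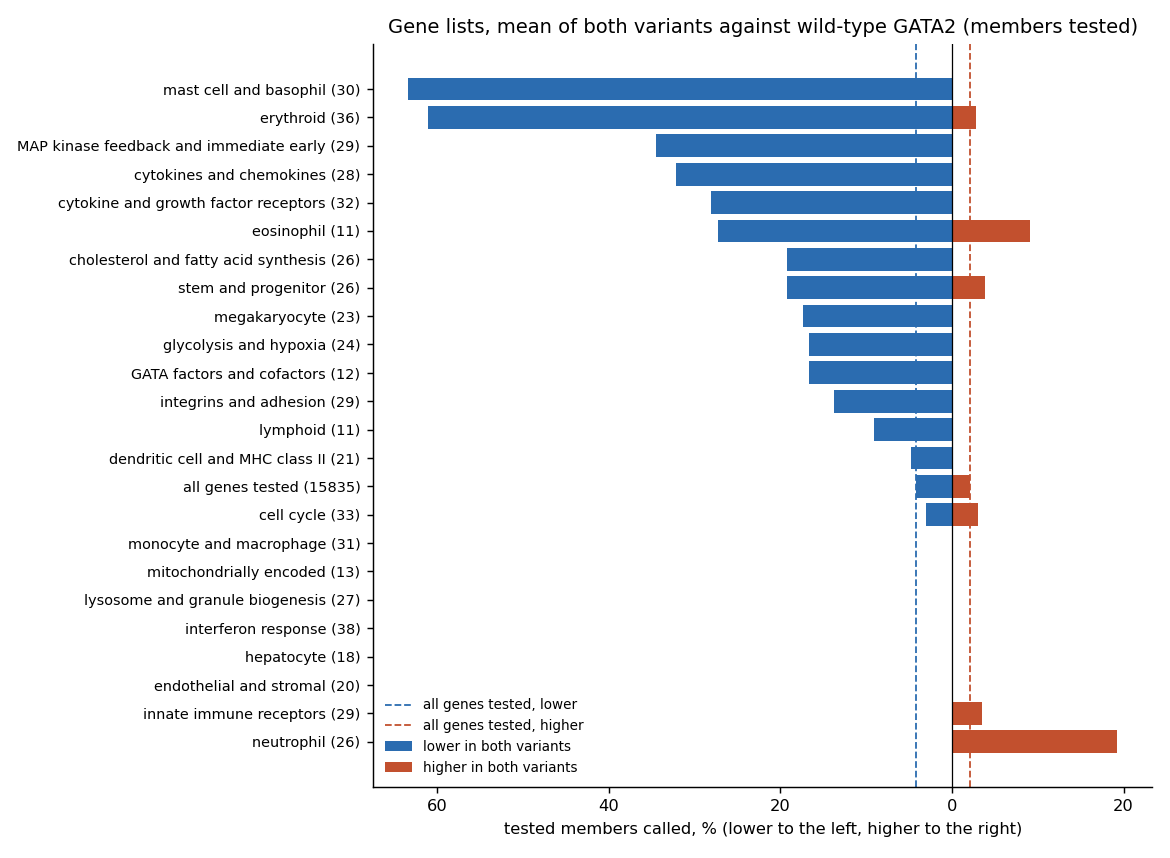
Share of tested members of each gene list called in the mean of both variants against wild-type GATA2, lower to the left and higher to the right, with the number tested in brackets. Dashed lines mark the shares over all genes, 4.25% lower and 2.1% higher. The mast cell and basophil list has 19 of 30 members lower and the erythroid list 22 of 36, and the neutrophil list has 5 of 26 higher. By itself R307W had 1 erythroid member lower and T354M had 23.

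The Gata2 level moved with the result, since it was lower on average in both variants and highest in replicate 4 of each vector group. With the log2 Gata2 level of each library as a covariate in the 12 libraries, an alternative added after the data were seen, 1206 genes were called, 674 of the 1005 among them. Shared genes then numbered 180, of which 98 are among the 157. The 1005 and the 157 come from the fit of 20 libraries, so these overlaps also reflect the change of libraries. A fit of the same 12 libraries with neither covariate nor block gave 851 calls, 752 of them among the 1005. Its shared genes numbered 65, of which 60 are among the 157. With the covariate, erythroid members were 2 higher and 14 lower, and neutrophil members 6 higher and none lower. MAP kinase and immediate early members were 1 higher and 13 lower. Cytokine and growth factor receptors were 1 higher and 17 lower, and glycolysis and hypoxia members 0 higher and 1 lower. Of the 53 called genes named by rule, E2f2, Scd1 and Aldoc lost their call with the covariate, and Tpsb2 was not tested in that fit.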

How the data were processed

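The deposited tables hold, per library and gene, an expected count (an estimated read number from RSEM) and TPM, in which the authors corrected for transcript length and depth. Per the submitters' processing notes the tools were STAR 2.5.2b and RSEM 1.3.0 on mm10, and per the labels the RNA was total RNA with the NuGEN Ovation protocol. FPKM in the same tables was not used here. Symbols and coordinates were matched from GENCODE M21 (GRCm38), and 105 of 53379 identifiers had no symbol.

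Expected counts were rounded, filtered with filterByExpr, scaled by TMM and fitted with edgeR 4.0.16 (R 4.3.3, quasi-likelihood F test) over all 20 libraries with 5 group means. Benjamini-Hochberg adjustment was over the 15835 genes tested. A shared gene needed the same sign in both variants and an adjusted larger p-value of R307W and T354M against wild-type GATA2 under 0.05. Replicates were not duplicates (chi-square per degree of freedom 16.7 to 108). The fit was tested on simulated counts.

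Alternatives were DESeq2 1.42.0, its size factors, limma 3.58.1 on log2(TPM + 1) and log2(TPM + 0.1), no filter, nuclear protein-coding genes alone, fewer libraries, both variants as 1 group, a replicate block, and leaving out libraries. The replicate block over 16 libraries and the Gata2 covariate were added after the data were seen.

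The replicate numbers come from the labels. Deviations from group means correlated in all 12 same-numbered pairs of the 3 vector groups (0.159 to 0.667, median 0.404), against -0.513 to 0.338 in the 36 other pairs. The numbers were therefore taken to pair these 12 libraries. Replicate 4 pairs were the closest (0.551 to 0.667). T354M replicate 2 correlated with replicate 2 of wild-type GATA2 and R307W at 0.159 and 0.291, but with their replicate 3 at 0.302 and 0.338. The pairing of replicate 2 is thus unsure, and the blocked counts rest on it.

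Genes were named by a rule: Gata2; the 12 highest and 12 lowest called log2 differences, given a vector group averaging 5 CPM or more and no overlap of the 8 variant with the 4 wild-type GATA2 libraries, without predicted, ribosomal, mitochondrial and pseudogenes; the 2 called members of each list with the lowest p; and the 6 called genes with the lowest p between the variants. Other list members were chosen as examples after their values were seen. The comparison and its 23 gene lists were chosen with earlier results of these data known.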

Additional observations from a re-analysis of the deposited data

Results flagged for a closer look

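In 162 groups of 4 libraries, 1 per named gene and vector group, 11 had a library far from the other 3 by Dixon's test, which chance gives in about 1 of 20 groups. Of the 11 libraries 5 were replicate 4. High in T354M replicate 4 were Tpsb2 (0.161 CPM), Tpsg1 (0.129) and Car8 (1.32), and high in R307W replicate 4 were Prss34 (166) and Siglecf (122). In R307W replicate 2, Tpsb2 (0.0385) and Dnase2b (0.0771) were high, each at 1 or 2 counts. In the rest, Gnai1 was low in R307W replicate 1 (0.0416), Nrg4 in R307W replicate 3 (7.72) and Gfi1 in T354M replicate 2 (50.9), and Scd1 was high in T354M replicate 1 (1.99).

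For 12 named genes of the comparison the variants differed from each other by edgeR, as R307W minus T354M on the log2 scale. R307W was higher for Gata1 (1.58), Ermap (2.94), Car2 (1.70), Slc2a3 (0.83), Ces1d (4.69) and Epdr1 (4.17). R307W was lower for Slc28a2 (-1.03), Elane (-0.79), Gfi1 (-1.48), Gatm (-1.89), Ctsg (-1.95) and Epx (-5.49).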

How the results depend on the processing

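The count of genes called in the mean of both variants against wild-type GATA2 was 1005, 332 higher and 673 lower. It was within 1.5 times with DESeq2 (1272), its size factors (1006), no filter (920) and limma on log2(TPM + 1) (699). Without replicate 4 of all groups it was 659 (173 higher), with both variants as 1 group 620 (203 higher, 417 lower), and at 2-fold or more 457 (67 and 390). limma gave 393 lower genes with a pseudocount of 1 and 414 with 0.1. The replicate block gave 1425 calls (504 higher) over 20 libraries, 2056 calls (771 higher, 1285 lower) over the 16 enhancer-null libraries, and 2180 (818 and 1362) over the 12. Leaving out each library gave 491 to 1143 calls, 161 to 344 higher and 330 to 847 lower, with the lowest counts without wild-type GATA2 replicate 4. The 201 higher without wild-type GATA2 replicate 1 also lay outside 1.5 times.

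Shared genes (157) numbered 272 with the replicate block over 20 libraries, 407 and 448 with the block over 16 and 12 libraries, 283 with DESeq2, 102 with limma on log2(TPM + 0.1), 93 without replicate 4 of all groups, 65 in a fit of the 12 libraries alone, and 58 to 269 when each library was left out. They numbered 58 and 74 without wild-type GATA2 replicate 4 and 1, 269 without replicate 3, and 83, 81 and 94 without R307W replicates 1, 2 and 3. R307W against T354M (553) gave 888 with the replicate block over 20 libraries and 1089 with it in a fit of the 8 variant libraries alone, 360 with limma on log2(TPM + 1), 316 without replicate 4 of all groups, 250 in a fit of those 8 libraries with no block, 309 at 2-fold or more, and 282 to 573 when each library was left out, with 282 without R307W replicate 4 and 364 without R307W replicate 1. Against the empty vector, both variants (3738) gave 2281 without replicate 4 of all groups and 1308 at 2-fold or more. Wild-type GATA2 (3042) gave 1996 and 1340, and 1574 to 3393 when each library was left out, the lowest without its replicate 4. The cause of these shifts was not tested.

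Of 53 named genes that were called, 8 lost the call under an alternative checked for them and none changed direction: Gata1, Nod1, Cdk6, E2f2, Hmgcs1, Scd1, Aldoc and Ctsg. Named genes were not checked with the variants pooled as a group, without the filter, or among protein-coding genes alone. Nor were they checked with limma at the smaller pseudocount, the block over the enhancer-null libraries, or the compared libraries without a block. The replicate block over 20 libraries or over the compared libraries ended no call of a named gene tested there, and brought in Gata2 (edgeR adjusted p = 0.0202 over 20 libraries). Tpsb2 was not tested with the block over the compared libraries.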
